A study of Rattus norvegicus with 8 samples.

Results

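Retinoic acid (RA) acts through nuclear receptors, and the genes described here are the receptors themselves together with 2 of their classic target genes. They are the RA receptors *Rara*, *Rarb* and *Rarg*, the retinoid X receptors *Rxra*, *Rxrb* and *Rxrg*, the transglutaminase *Tgm2* and the nuclear receptor corepressor *Nrip1*. They were chosen by name, and each was represented by the brightest of the array probes whose transcript accession matched it. Of the 8 genes, 7 had such a probe, out of 15159 genes that could be named on the array. *Rarb* had none and was not analysed here.

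Male F344 rats (F344N in the labels) kept in short days (SD) had a cannula placed in the third ventricle and were injected through it with all-*trans* RA or with vehicle, and hypothalamic blocks that included the arcuate nuclei were taken a day later. Of 15 measured neuropeptide and region genes of the hypothalamus, 14 were detected in vehicle on all arrays, against 65.6% of all named genes. RNA of 4 RA-injected and 4 vehicle-injected rats was hybridised with dye-swap to 8 Agilent arrays of the 2-colour kind, each carrying RA RNA in Cy3 or Cy5 and vehicle RNA in the other dye. The labels give the RA concentration as 1e-05 M and the vehicle as saline, whereas the methods give a higher concentration of RA in DMSO and saline and do not give the composition of the vehicle. Ages are not given in the sources used here. Which arrays share RNA is not given either, so that the 8 arrays count as 4 pairs at most. In their ratios the arrays 1 and 2, 3 and 4, 5 and 8, and 6 and 7 were most alike, with correlations of 0.466 to 0.716 over 19818 bright probes after the mean of each dye order was taken off, against -0.422 to 0.255 for the 12 other couples of opposite dye order. That is a hint from the data that these are the dye-swap pairs. RA was in Cy5 on arrays 1, 3, 6 and 8 and in Cy3 on arrays 2, 4, 5 and 7. The slide had arrays 1 to 4 in row 1 and arrays 5 to 8 in row 2. Every value below is a log2 ratio of RA over vehicle unless a level is named, with positive values where the level was higher after RA.

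As background, RARs bind RA and pair with RXRs on short repeated DNA motifs near their target genes. Without ligand the pair holds corepressors, and with RA it takes up coactivators and transcription of the target rises. RXRs also pair with other nuclear receptors, among them those for thyroid hormone, vitamin D, fatty acids and oxysterols. In the brain RA is made by aldehyde dehydrogenases of the meninges and of tanycytes and is broken down by CYP26 enzymes, whose genes are among its targets in many tissues. *Rarb* is the receptor gene best known for being induced by RA itself, through a repeat of 2 hexamers separated by 5 bases close to its transcription start.

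That element is shown because it is the textbook RA response element and belongs to the gene the named probes left out. It was found by a search of the promoter window of each gene in RefSeq (GRCr8), from 250 bases before to 50 bases after the start, for direct repeats with a spacer of 1, 2 or 5 bases on either strand, in which each hexamer could be AGGTCA as the first form, AGTTCA as the second, GGGTCA as the third or GGTTCA as the last. The hexamers are in capitals, with 6 flanking bases on each side, at chr15:11336410-11336438 on the plus strand.
*Rarb*: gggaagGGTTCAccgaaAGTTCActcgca
It lies from base 25 to base 41 after the start. A window was found for 7 of the 8 genes (8 windows, as *Rarg* had 2 starts), and none of the other 7 windows held such a repeat. No window was at hand for *Tgm2*, so that its promoter was not searched. Of all 33469 windows, 0.382% held a repeat with a spacer of 5 and 0.777% a repeat with any of the 3 spacers. Windows of *Cyp26b1*, *Dhrs3*, *Cd38*, *Icam1*, *Rarres2* and *Nr1h3*, described further below, held none either. A match is only a description of the letters, and the absence of one in so short a window says nothing of whether the receptors bind elsewhere.

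*Tgm2* rose after RA, by 0.60 on the log2 scale (standard error 0.14, 4 pairs), which is 1.52-fold. No receptor gene passed the test, and neither did *Nrip1*. *Rara* came nearest, at 0.21 (unadjusted p = 0.0215 in limma). The other 5 genes had log2 fold changes between -0.07 and 0.03. A call is an unadjusted p under 0.01 in limma, the threshold of the methods, where p is the largest over the 24 ways in which the 4 arrays of one dye order can be matched to the 4 of the other. Among all named genes 3.52% were called higher by this rule and 0.792% lower, so that 1 of 7 genes stands against a background of 3.52%. No probe on the array had an adjusted p under 0.05 (0 of 30367 in limma, while 3292 had an unadjusted p under 0.05), and the adjusted p of *Tgm2* was 0.268.

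**Figure D1:**
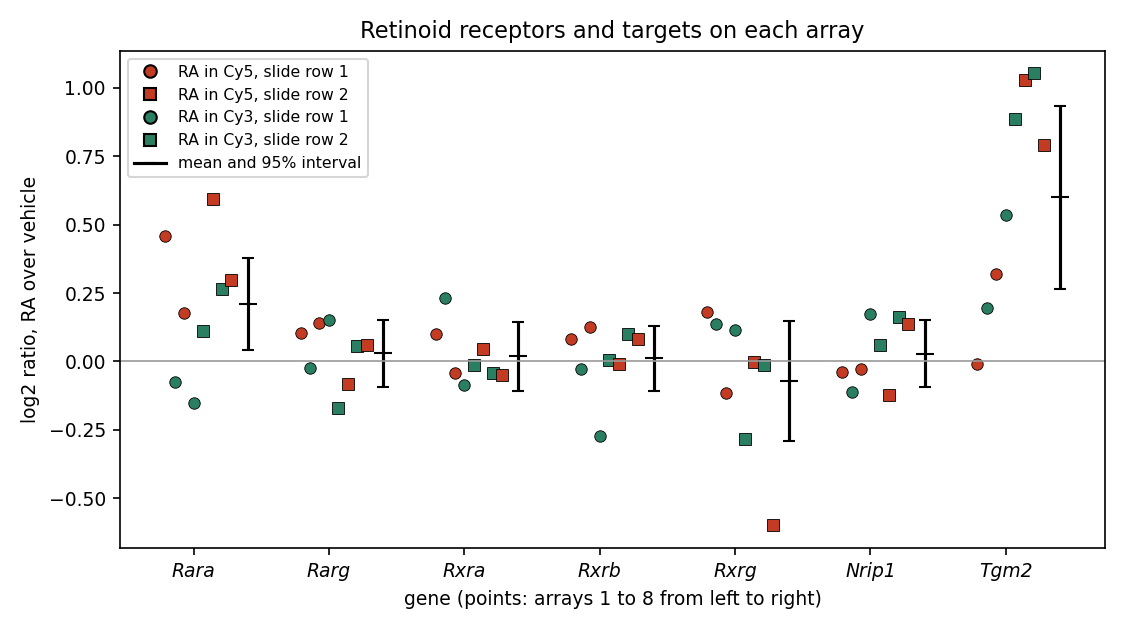
Log2 ratio of RA over vehicle (vertical axis) for each measured gene (horizontal axis). Points are the 8 arrays in order from left to right, coloured by the dye that carried RA and shaped by slide row, and the black bars are the mean and its 95% interval. *Tgm2* lies between -0.01 and 1.05 with its 4 highest values in slide row 2, whereas *Rarg*, *Rxra*, *Rxrb* and *Nrip1* stay within 0.28 of 0.

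Which receptors could be seen in the vehicle hypothalamus was read from the mark that the image software gives to a spot well above background. On all 8 arrays the vehicle channel was marked for *Rara*, *Rarg*, *Rxrb* and *Rxrg*, as it was for *Tgm2* and *Nrip1*. That makes 6 of 7 genes, against 65.6% of all named genes. *Rxra* was marked on 5 arrays.

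*Rxrg*, the isotype with the most restricted expression in the adult brain, had a median vehicle signal of 23.6 times its local background, ranging from 10.4 to 29.4. For *Rxrb*, the broadly expressed isotype, the median was 10.9, with a range of 9.39 to 16.7. *Rarg* had a median of 6.78 and a range of 4.12 to 12.6. A second probe of *Rarg* had a median of only 1.28 and a range of 1.11 to 1.77, and was marked in vehicle on 5 arrays. *Rara*, the RAR found in most tissues, had a median of 2.45 and a range of 1.9 to 3.1, above background on every array but not by much. These ratios describe single probes and set no order of abundance between the receptors, because probes differ in how well they bind.

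*Rxra* sat at the edge of detection, with a vehicle signal of 1.35 to 1.54 times local background. Its marks went with the dye rather than with the treatment. In the vehicle channel it was marked on all spots of arrays 2, 4, 5 and 7, where vehicle was in Cy5, and otherwise only on 1 of 2 spots of array 6. In the RA channel it was marked on all spots of arrays 1, 3, 6 and 8, where RA was in Cy5, and on 1 of 2 spots of array 2. When every spot had to be marked, vehicle detection of *Rxra* was down to 4 arrays. The signal of all 7 genes was over the 95th percentile of the negative control spots on 8 of 8 arrays. That is a looser measure, and its share over all named genes was not computed. *Vdr*, marked in vehicle on 2 arrays, was over that level on 8 as well, and *Cyp26a1*, marked on 1, was over it on 5.

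**Figure D2:**
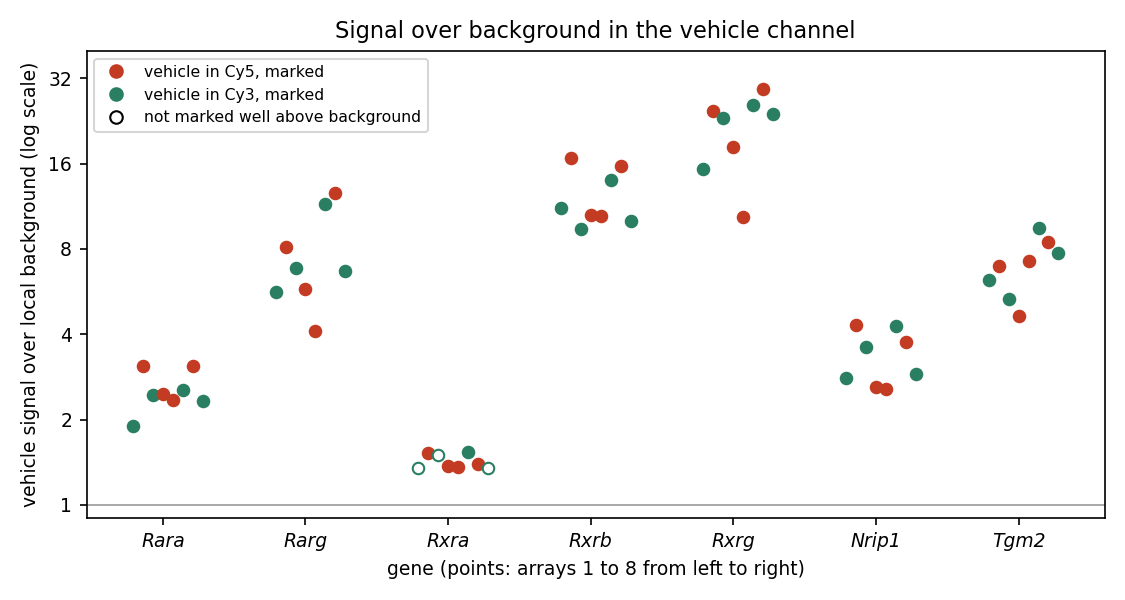
Vehicle signal divided by the local background of the spot (vertical axis, log scale) for each measured gene, with arrays 1 to 8 from left to right. Filled points carried the mark for well above background on at least 0.5 of the probe's spots and open points did not, and colour gives the dye of the vehicle RNA. *Rxra* lies between 1.35 and 1.54 with 3 open points, all with vehicle in Cy3, and the other 6 genes are filled throughout.

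*Rara* (probe A_64_P022943) had log2 ratios of 0.46, 0.18, 0.59 and 0.30 on the arrays with RA in Cy5 (1, 3, 6 and 8). On arrays 2, 4, 5 and 7, where RA was in Cy3, they were -0.08, -0.15, 0.11 and 0.27. Both negative values came from row 1 arrays with RA in Cy3, and the dye orders overlap only between 0.18 and 0.27. The mean was 0.38 in the first dye order and 0.04 in the second. Over all arrays it was 0.21 with a 95% interval of 0.04 to 0.38, and in limma the unadjusted p ran from 7.2e-04 to 0.0215 over the 24 pairings and the adjusted p was 0.364. An unadjusted p under 0.01 was reached in 16 pairings. The term for the dye, in a limma fit of 8 independent arrays, was 0.17 with an unadjusted p of 0.0146. It is the distance of each dye order from the mean of both, the first above and the second below, and not the difference between them. *Rara* and *Tgm2* were the members under an unadjusted p of 0.05 on the higher side, where 8.48% of all named genes lay.

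*Rarg* (probe A_64_P119572) had log2 ratios of 0.10, 0.14, -0.08 and 0.06 where RA was in Cy5 and of -0.02, 0.15, -0.17 and 0.06 where it was in Cy3. Arrays of both signs appear in both dye orders, and the ranges of the dye orders overlap almost entirely. The log2 fold change was 0.03 with a 95% interval of -0.09 to 0.15 (unadjusted p = 0.587 in limma), so that a change beyond 0.15 in either direction lies outside the interval. A dimmer second probe of *Rarg*, detected in vehicle on 5 arrays, gave 0.04 (unadjusted p = 0.648 in limma).

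For *Rxra* (probe A_64_P096841) the log2 ratios were 0.10, -0.04, 0.05 and -0.05 where RA was in Cy5 and 0.23, -0.08, -0.01 and -0.04 where it was in Cy3. Array 2 was the highest and the others lay between -0.08 and 0.10. The log2 fold change was 0.02 (95% interval -0.11 to 0.15, unadjusted p = 0.744 in limma). Both channels lay at the edge of detection, so the interval describes the measured ratio and not the transcript.

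*Rxrb* (probe A_64_P327151) had log2 ratios of 0.08, 0.13, -0.01 and 0.08 where RA was in Cy5, and of -0.03, -0.27, 0.01 and 0.10 where it was in Cy3. Array 4 was the lowest of the 8 and the others lay between -0.03 and 0.13. The log2 fold change was 0.01, with a 95% interval of -0.11 to 0.13 (unadjusted p = 0.832 in limma).

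*Rxrg* (probe A_64_P027625) had the widest spread of the receptors over the arrays. Its log2 ratios were 0.18, -0.12, -0.00019 and -0.60 where RA was in Cy5 and 0.14, 0.12, -0.28 and -0.01 where it was in Cy3. The lowest were on arrays 8 and 5, which have opposite dye orders and lie in row 2. They were among the couples most alike in their ratios, so that their values are not to be counted as separate events. On these 2 arrays the median of 15 hypothalamic neuropeptide and region genes was also low, at -0.63 and -0.59, whereas it was between -0.03 and 0.18 on the other 6. The vehicle level of *Rxrg* was 9.57 on array 5 on the log2 scale and between 10.6 and 11.1 on the others, with the highest on array 8. Its RA level was low on array 5 as well, at 9.29, and between 10.52 and 11.03 on the others. Both channels were thus lower on array 5 than on array 8, the array most like it in its ratios, and the cause was not tested. Over all arrays the log2 fold change was -0.07 (95% interval -0.29 to 0.15, unadjusted p = 0.465 in limma), and without arrays 8 and 5 it was 0.05 (unadjusted p = 0.448 in limma). The part of the hypothalamic genes in this result was not tested. In a tissue block, fewer cells of a type and less RNA per cell cannot be told apart.

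*Nrip1* (probe A_64_P370146), which encodes a corepressor that RA is known to induce and that then binds the liganded receptors, had log2 ratios of -0.04, -0.03, -0.12 and 0.14 where RA was in Cy5 and of -0.11, 0.17, 0.06 and 0.16 where it was in Cy3. The ratio was above 0 on 4 of the 8 arrays. The log2 fold change was 0.03 (95% interval -0.09 to 0.15, unadjusted p = 0.598 in limma), and its second probe gave 0.09 (unadjusted p = 0.305 in limma).

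*Tgm2* (probe A_42_P824489) encodes tissue transglutaminase, a calcium-dependent enzyme that crosslinks proteins and also binds GTP, and its induction by RA has long been known in macrophages and endothelium. Log2 ratios were -0.01, 0.32, 1.03 and 0.79 on arrays 1, 3, 6 and 8, with RA in Cy5. On arrays 2, 4, 5 and 7, with RA in Cy3, they were 0.20, 0.53, 0.89 and 1.05. The dye orders cover the same range and have means of 0.53 and 0.67. *Tgm2* was higher after RA on 7 of 8 arrays and level on array 1.

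The unadjusted p of *Tgm2* in limma lay between 2.45e-07 and 0.00362 over the 24 pairings and was under 0.01 in all 24. Its 95% interval ran from 0.27 to 0.93. Of the 16 couples of arrays that were left out in turn, 1 per dye order, 5 ended the call (arrays 6 and 5, 6 and 7, 8 and 4, 8 and 5, and 8 and 7), with log2 fold changes of 0.45 to 0.58 and the largest unadjusted p in limma, 0.0164, without arrays 8 and 5. Among the 4 couples that were most alike, the call held without arrays 1 and 2 and without arrays 3 and 4, and was lost without the others. Turning the signs of the 4 pair means in all ways, as an exact permutation test (two-sided), gave 0.125 in every pairing, and 4 pairs cannot give a smaller p. *Rara*, which was not called, also gave 0.125 in all 24 pairings, and *Nrip1* did in 4, so that this test does not set *Tgm2* apart. Plain background subtraction gave *Tgm2* a log2 fold change of 0.67 but raised p to 0.0227 (unadjusted, limma), and the image software's own log ratio gave 0.67 and 0.0292.

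The size of the rise differed between the rows of the slide. In row 1 the 4 ratios were between -0.01 and 0.53, with a mean of 0.26, and in row 2 between 0.79 and 1.05, with a mean of 0.94. The rows do not overlap, and each holds 2 arrays of each dye order. With the arrays most alike taken as pairs, each row holds 2 pairs and the rows would hold different rats, so that slide row and rats cannot be told apart. The rows differed by 0.68 in a fit of 2 pair means against 2 (unadjusted p = 0.00212, adjusted p = 0.238 in limma). This fit kept the largest p over the pairings within rows. In it 655 of all probes had an unadjusted p under 0.01 for the row difference and 22 an adjusted p under 0.05. On the pairs most alike, the unadjusted p of *Tgm2* was the same, its adjusted p was 0.225 in limma, and 715 probes were under 0.01. Taken alone, row 1 left the rise of *Tgm2* above the threshold (unadjusted p = 0.0123 in limma), and with slide row as a block it was called (unadjusted p = 7.78e-05, adjusted p = 0.0106 in limma). None of the other members had an unadjusted p under 0.05 for the row difference, the lowest being that of *Rxrg* at 0.0942 in limma. Vehicle levels of *Tgm2* were 8.63 to 8.98 on the log2 scale in row 1 and 8.89 to 9.76 in row 2. RA levels were 8.95 to 9.34 in row 1 and 9.94 to 10.6 in row 2, so that they did not overlap.

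Marker lists of cell types that can express *Tgm2* were read beside it. Endothelial markers had a median log2 fold change of -0.003 over 9 measured of 10 listed genes, with 0 called in either direction (1 at an unadjusted p under 0.05 in limma), and array medians between -0.04 and 0.07. The level of their summed signals was 12.4 to 12.7 on the log2 scale in vehicle and 12.4 to 12.6 in RA. Reactive astrocyte genes had a median of 1.37, and 10 of 12 measured genes were called, all higher, against 3.52% of all named genes. Their array medians were 0.55, 0.52, 0.90 and 0.89 in row 1 and 1.72, 2.27, 2.33 and 2.24 in row 2, and the summed level was 12.4 to 13.1 in vehicle and 13.3 to 15.6 in RA. General astrocyte markers, a list that shares *Gfap* with the reactive genes, had a median of -0.12 over 9 measured genes. *Gfap* was called higher, at 1.40, and *Gja1*, a gap junction protein of astrocytes, was called lower, at -0.22 (unadjusted p = 0.00697 in limma). At an unadjusted p under 0.05 in limma, 3 of the 9 were lower, and the share of all named genes lower at that p was not computed. For microglia and macrophage markers the median was 0.85, with 8 of 12 genes called higher and 1 lower. The shares over all named genes were 3.52% higher and 0.792% lower. The marker called lower was *Tmem119*, at -0.52 (unadjusted p = 0.00234 in limma). *P2ry12* was at -0.15 and *Cx3cr1* at 0.08, and neither was called.

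Array medians of these microglia and macrophage markers were 0.20 to 0.49 in row 1 and 1.01 to 1.22 in row 2, and the summed level was 14.5 to 15.3 in vehicle and 15.0 to 16.3 in RA. *Tgm2* and both glial lists were thus higher on every row 2 array than on any row 1 array. In vehicle 8 of the 12 reactive astrocyte genes and 11 of the 12 microglia and macrophage markers were detected on all arrays, against 65.6% of all named genes. No gene of either list was undetected on all 8. The part of these cells in the rise of *Tgm2* was not tested. These marker lists were chosen with earlier results of these data known.

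**Figure D3:**
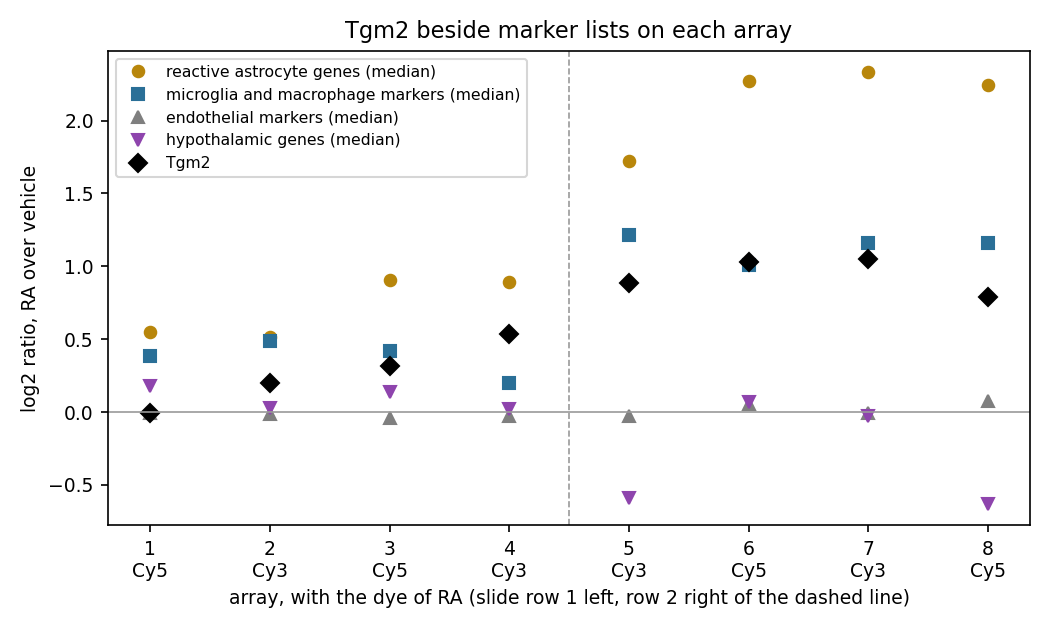
Log2 ratio of RA over vehicle (vertical axis) on each of the 8 arrays (horizontal axis, with the dye of RA below the number) for *Tgm2* and for the medians of 4 marker lists. Row 1 is left and row 2 right of the dashed line. *Tgm2*, the reactive astrocyte median and the microglia and macrophage median are all higher in row 2, the endothelial median lies between -0.04 and 0.07 throughout, and the hypothalamic median drops to -0.59 and -0.63 on arrays 5 and 8.

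The genes whose ratios followed those of *Tgm2* most closely over the 8 arrays, among 10877 genes well above background, were *Jak3* (Pearson's r = 0.990), *Fgfrl1* (0.982), *Clic1* (0.981), *Runx1* (0.980) and *Cp* (0.974). These correlations are a description of 8 arrays that share RNA in pairs and a slide in 2 rows, and they were picked as the highest. *Jak3*, a kinase of cytokine receptors, had a log2 fold change of 0.85, with row means of 0.37 and 1.32. *Fgfrl1*, a receptor-like protein that binds fibroblast growth factors, had 0.89, with row means of 0.48 and 1.31. *Clic1*, an intracellular chloride channel protein, had 1.05. *Runx1*, a transcription factor of blood cell development, had 0.47 with an unadjusted p of 0.0116 in limma and was not called. *Cp* encodes the copper carrier ceruloplasmin and had 2.60, and it also belongs to the list of reactive astrocyte genes.

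Other genes with a described RA response element, or named for induction by RA, did not move one way. Of 34 listed, 27 were measured, and 3 were called higher and 2 lower. Among all named genes 3.52% were called higher and 0.792% lower. Their median log2 fold change was 0.004, beside -0.005 over all named genes, and 15 of the 27 were above 0. Those called higher were *Cd38* at 0.66 (standard error 0.13), *Icam1* at 0.65 (standard error 0.12) and *Rarres2* at 0.40 (standard error 0.11). *Cd38* encodes an enzyme that consumes NAD and is abundant on immune cells, *Icam1* an adhesion molecule for leukocytes, and *Rarres2* the chemokine chemerin.

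*Cd38* and *Icam1* were above 0 on 8 of 8 arrays and had row means of 0.38 and 0.95 and of 0.36 and 0.95, larger in row 2 as for *Tgm2*, a difference that was not tested for these genes. *Rarres2* was above 0 on 7 arrays and was called in 9 of 16 fits without a couple of arrays. Its call was also lost with plain subtraction (unadjusted p = 0.0363 in limma), with the image software's log ratio (0.0584), among bright probes only (0.0111) and with RA in Cy5 alone (0.0544). With the image software's log ratio *Cd38* and *Icam1* were not called either (unadjusted p = 0.0129 and 0.0130 in limma). *Rarres1*, another gene named for induction by RA, had a log2 fold change of 0.71 and was above 0 on 8 arrays, but ranged from 0.06 to 1.91 and was not called (unadjusted p = 0.0237 in limma).

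The 2 genes called lower act on RA supply. *Cyp26b1*, an enzyme that breaks RA down in the brain and that RA is known to induce in other tissues, had a log2 fold change of -0.63 (standard error 0.14, unadjusted p = 0.00245 and adjusted p = 0.258 in limma). Its log2 ratios were -0.23, 0.11, -0.41 and -0.99 where RA was in Cy5 and -0.86, -0.43, -1.32 and -0.89 where it was in Cy3. It was below 0 on all arrays but array 3, and lower on average with RA in Cy3 (-0.87) than in Cy5 (-0.38), where it was not called (unadjusted p = 0.0416 in limma). *Cyp26b1* was at -0.80 under plain subtraction (unadjusted p = 0.0291 in limma) and at -0.82 with the image software's log ratio (unadjusted p = 0.0369 in limma).

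*Dhrs3*, a reductase that turns retinaldehyde back into retinol, was below 0 on 8 of 8 arrays, from -0.51 to -0.04. Its log2 fold change was -0.20 (standard error 0.06), and its unadjusted p of 0.00943 in limma was near the threshold, being under 0.01 in 10 of 20 other settings and in 3 of 16 fits that each left out an array of both dye orders. The other well-known target among the CYP26 enzymes, *Cyp26a1*, was marked in vehicle on 1 array and had a log2 fold change of -0.04.

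Genes of retinoid synthesis, breakdown and binding had a median log2 fold change of -0.05 over 14 of 15 listed genes. *Cyp26b1* and *Dhrs3* were called lower and 0 higher, beside 0.792% lower and 3.52% higher among all named genes. At an unadjusted p under 0.05 in limma, 3 of the list were lower and 2 higher. Among all named genes 8.48% were higher at that p, and the share that was lower was not computed. The third of the list on the lower side was *Aldh1a1*, an enzyme of RA synthesis, at -0.40 (unadjusted p = 0.0388 in limma) and below 0 on 6 of 8 arrays. The next lowest p in this list was that of *Fabp5*, a fatty acid binding protein that carries RA to another nuclear receptor, at 0.32 (unadjusted p = 0.0185 in limma).

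Among the 13 nuclear receptors that pair with RXR, *Nr1h3*, the oxysterol receptor LXRα, was the one gene called. Of all named genes 3.52% were called higher. *Nr1h3* was higher on 8 of 8 arrays, from 0.03 to 0.50, and its log2 fold change was 0.25 (standard error 0.07). The unadjusted p of 0.00999 in limma lay at the threshold. It was under 0.01 in 11 of 20 other settings and in 4 of 16 fits without a couple of arrays, and the largest was 0.161, in slide row 1 alone, where the log2 fold change was 0.11. *Pparg* and *Nr4a2* came next with log2 fold changes of -0.13 and -0.23, and neither was called. The list had a median of 0.004, with 8 of 13 genes above 0.

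Of the cofactors, 3 of 9 listed coactivators and 6 of 11 listed corepressors were measured, and none was called (0 at an unadjusted p under 0.05 in limma as well). *Carm1*, *Crebbp* and *Ncoa2* had log2 fold changes of 0.04, 0.03 and -0.03. The value of *Ncoa2* hides a difference between the dye orders, as its mean was 0.35 where RA was in Cy5 and -0.42 where it was in Cy3. Among the corepressors, *Gps2* was at 0.12, *Tbl1xr1* at -0.10 and *Hdac3* at 0.05. Both lists had medians of 0.03.

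The other transglutaminases did not pass the test. Of 7 listed genes 4 were measured, with a median log2 fold change of 0.07 and 0 called (0 at an unadjusted p under 0.05 in limma). *Tgm1*, the keratinocyte enzyme, had 0.23, with -0.07 in row 1 and 0.53 in row 2, and was marked in vehicle on 2 arrays only. *F13a1*, the coagulation factor subunit made by macrophages, had 0.07 and *Tgm3*, an epidermal enzyme, had 0.07.

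**Figure D4:**
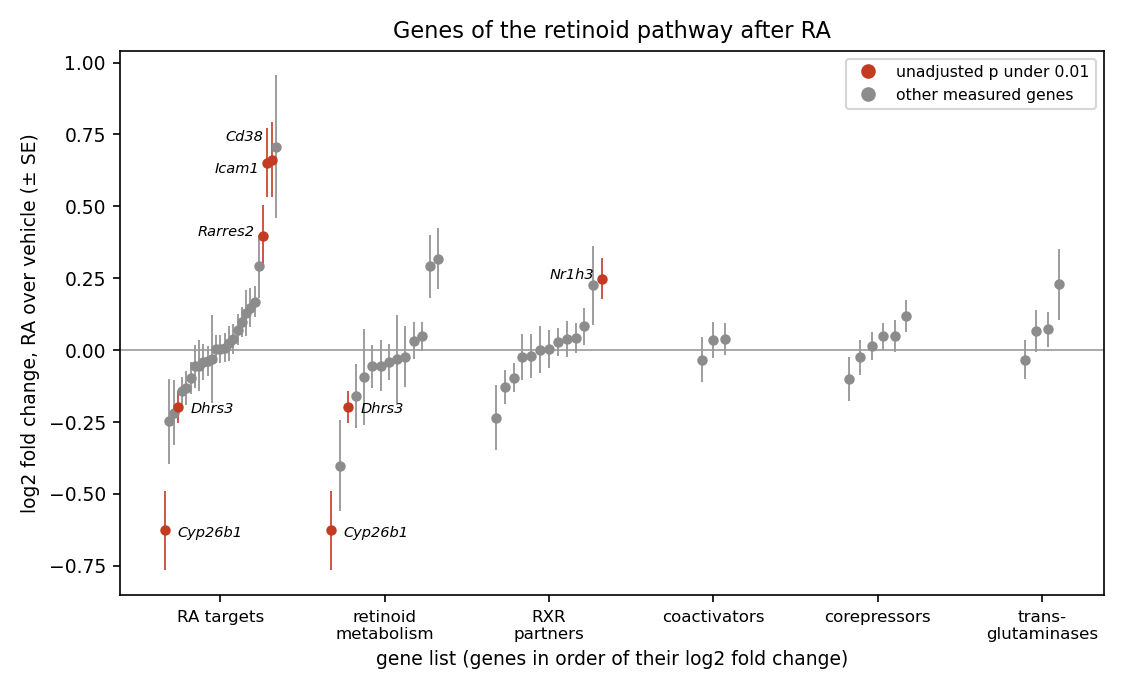
Log2 fold change after RA with its standard error (vertical axis) for every measured gene of 6 lists of the retinoid pathway (horizontal axis), genes ordered by value within a list, with a gene held by 2 lists shown in both. Red points had an unadjusted p under 0.01 in limma and are named. Of the red points *Cyp26b1* is the lowest at -0.63 and *Cd38* the highest at 0.66, and *Rarres1*, in grey at 0.71, has the widest error of the genes above 0.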

How the data were processed

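For every array the authors deposited spot intensity in Cy3 and Cy5 (linear scale) with the log10 ratio of the image software, and for the series a table of processed log2 ratios of RA over vehicle. In their methods, loess normalisation was followed by averaging over repeated probes and a limma fit in which the dye-swap was a block.

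In R 4.3.3 with limma 3.58.1, median intensities of all 62976 spots were background-corrected by normexp (offset 50), control and outlier spots (0.913% to 2.42% per array) were left out, loess was applied within arrays and spots of a probe were averaged. Between 57.4% and 74.6% of probes were well above background in RA and 61.2% to 74.5% in vehicle. The fit was an intercept on 4 pair means per probe with moderated variances, repeated for all 24 pairings with the largest p kept, with Benjamini-Hochberg adjustment over 30367 probes. The number of arrays limits the precision. Levels were set on a common scale by Aquantile. Of the probes, 18006 matched a gene by RefSeq accession (GRCr8). The test was also run on simulated arrays with normally distributed noise that was independent between probes. They held no slide row or dye effects, so that run cannot show how the test behaves under those effects.

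Named are all members with their other probes, every listed pathway gene with an unadjusted p under 0.01 and up to 3 with the lowest p in each list, and the 5 genes most like a called member. *Rarres1*, *Cyp26a1*, *Aldh1a1*, *Vdr* and the marker lists described beside *Tgm2* and *Rxrg* were singled out beyond that rule. The members and lists were chosen with earlier results of these data known. Alternatives were other background corrections, the image software's log ratio, the deposited values, scaling between arrays, outlier spots kept, bright probes only, a variance trend, block and independent fits, single pairings, dye orders and slide rows alone, other thresholds and probes, and couples of arrays left out. Chosen after seeing the data were the test of the difference between slide rows and the fits that take the arrays most alike as pairs.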

Additional observations from a re-analysis of the deposited data

Results flagged for a closer look

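Dixon's test asked, for the ratios of 7 members and the medians of the gene lists, whether 1 of the 4 arrays with RA in the same dye stood off from the other 3. Of 54 groups searched, 5 held such an array, where chance gives about 1 in 20, and no member was among them. The median of the hypothalamic genes was -0.63 on array 8, with the others of its dye order between 0.07 and 0.18, and -0.59 on array 5, with the others between -0.03 and 0.02. The median of the astrocyte markers was -0.17 on array 8, against -0.05 to -0.02. The median of the choroid plexus markers was -1.38 on array 6, against 0.32 to 0.64, and -1.57 on array 7, against 0.07 to 0.32. Arrays 8 and 5, and arrays 6 and 7, were among the couples most alike in their ratios so that their values are not to be counted as separate events. Without arrays 8 and 5, *Tgm2* had a log2 fold change of 0.52 (unadjusted p = 0.0164 in limma), and without arrays 6 and 7 it had 0.45 (unadjusted p = 0.0119 in limma). The cause was not tested.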

How the results depend on the processing

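The cause of each change below was not tested. Of the 7 genes, 1 was called. That count was 0 at an adjusted p under 0.05, with plain background subtraction, with the image software's log ratio and in slide row 1 alone, and 2 at an unadjusted p under 0.05, with 8 independent arrays, with the dye-swap pairs as a random block and in the most permissive of the pairings, where *Rara* joined *Tgm2*. With RA in Cy5 alone, *Rara* was called (unadjusted p = 0.00153 in limma) and *Tgm2* was not (unadjusted p = 0.0102 in limma). When a couple of arrays, 1 per dye order, was left out in turn, 0 to 2 genes were called. *Tgm2* stayed above 0 in 36 of 36 alternatives and was called in 11 of 16 leave-one-out fits, where it lay between 0.45 and 0.77, the exceptions being those without arrays 6 and 5, 6 and 7, 8 and 4, 8 and 5, or 8 and 7. *Rara* stayed above 0 in 36 of 36 and was called in 1 of the 16, without arrays 3 and 4. The count of genes detected in vehicle was 6 or 7 under the alternatives tried, with 7 by the looser measure of the negative control spots. Of all probes, 988 were called, against 3292 at an unadjusted p under 0.05, 0 at an adjusted p under 0.05, 237 with plain subtraction, 330 with the image software's log ratio, 2481 with 8 independent arrays, 1742 with the random block, 3142 in the most permissive pairing, 2161 with RA in Cy5 alone, 2317 with RA in Cy3 alone, 1595 with slide row as a block and 455 to 1111 in leave-one-out fits.

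Genes that were not called and lay near 0 changed sign in places, each value being a log2 fold change. In slide row 1 alone *Rxrg* was at 0.080, *Rxrb* at -0.022, *Nrip1* at -0.00073, *Ncoa2* at 0.14, *Tgm1* at -0.070, *F13a1* at -0.0022 and *Carm1* at -0.0046. In row 2 alone *Rarg* was at -0.033 and *Rxra* at -0.014. With the image software's log ratio *Rxra* was at -0.020, *Rxrb* at -0.021 and *Nrip1* at -0.015. With RA in Cy5 alone *Nrip1* was at -0.014, *Ncoa2* at 0.35 and *Tbl1xr1* at 0.035, and with RA in Cy3 alone *Rxrb* was at -0.047, *Tgm3* at -0.085 and *Carm1* at -0.0012. Leave-one-out fits ran from -0.0086 to 0.082 for *Rarg*, -0.031 to 0.047 for *Rxra*, -0.023 to 0.062 for *Rxrb*, -0.15 to 0.051 for *Rxrg*, -0.013 to 0.078 for *Nrip1*, -0.0032 to 0.084 for *Carm1*, -0.026 to 0.094 for *Crebbp*, -0.11 to 0.026 for *Ncoa2* and -0.0098 to 0.13 for *Tgm3*. The labels' numbers pair no arrays. With the arrays most alike as the pairs (1 and 2, 3 and 4, 5 and 8, 6 and 7), a replicate block chosen after the data had been seen, paired means gave 1 of the 7 genes and 1081 probes called, with an unadjusted p of 0.00362 for *Tgm2* and 0.0190 for *Rara* in limma. The same pairs as a random block gave 2 genes, *Tgm2* (unadjusted p = 3.22e-04, adjusted p = 0.0329 in limma) and *Rara* (unadjusted p = 0.00785, adjusted p = 0.147 in limma), and 1820 probes.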
